A study of Mus musculus with 2 samples.

Results

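Caveolae are small flask-shaped pits of the plasma membrane, and the 9 mouse genes that encode their coat and neck proteins were followed in inguinal white fat of obese mice. The genes are the caveolins Cav1, Cav2 and Cav3, the cavins Cavin1, Cavin2, Cavin3 and Cavin4, and the neck proteins Ehd2 and Pacsin2. They were chosen by symbol, and all 9 were found among the 37315 genes listed in both libraries. One library came from entacapone-treated mice and 1 from vehicle-treated mice. Both came from C57BL/6 males aged 23 weeks, with no genetic modification stated and with obesity induced by a high-fat diet, which both groups had received. Entacapone inhibits catechol-O-methyltransferase and is used in Parkinson disease. It has also been described to inhibit FTO, an enzyme that removes methyl groups from RNA. The sources used here do not give the dose, the duration of treatment or how many mice stand behind a library.

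Caveolins are hairpin proteins of the inner leaflet that oligomerize with cholesterol, and cavins are cytosolic proteins that assemble on them and hold the pit in shape. EHD2 is an ATPase that forms a ring at the neck and anchors the pit at the surface, and PACSIN2 is an F-BAR protein that helps to shape that neck. Adipocytes and endothelial cells are among the cell types richest in caveolae, and loss of CAV1 or CAVIN1 in humans causes generalized lipodystrophy.

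The entacapone library held 12979673 and the vehicle library 13620056 counted reads. Neither group has a replicate, so no test was possible and every difference below is one between these libraries. Levels are given as CPM, which are counts scaled to library size and adjusted between the libraries by the trimmed mean of M-values (TMM). Each ratio is entacapone over vehicle with an exact 95% interval that covers the counting of reads but not how much mice, dissections or library preparations vary. A gene was called different where its ratio passed 1.5-fold and its interval excluded 1, among the 13361 genes whose mean reached 1 CPM. Markers of adipocytes were abundant, with a summed level of 52674 CPM in the entacapone library and 46913 CPM in the vehicle library, and none of these 11 markers was at 0 reads.

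None of the caveola genes passed the 1.5-fold call in either direction, and 8 of the 9 reached the expression minimum. Across all tested genes the call took 4.16% as higher and 7.9% as lower with entacapone. Below that size, 6 of the 8 measured caveola genes were lower beyond counting error and 0 were higher. By the same rule 21.1% of all tested genes were lower and 20.2% higher. Other than Cav3 and Cavin4, the caveola genes are abundant and have narrow intervals. With the call limit moved to a log2 ratio of -0.32, Cav2 and Cavin2 passed as lower, 2 of the 8 measured genes, against 14.1% of all tested genes. Among the 1746 genes whose mean reached 100 CPM, 31.2% were lower and 44.3% higher beyond counting error, and all 6 caveola genes in that range were among the lower ones. This minimum of 100 CPM was added after the values were seen. The median log2 ratio of the 8 measured genes was -0.11, against 0.00 for all tested genes. In bulk tissue, fewer cells of a type and less RNA per cell cannot be told apart. The 6 lower genes fell into 2 sizes of difference, described gene by gene below.

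**Figure D1:**
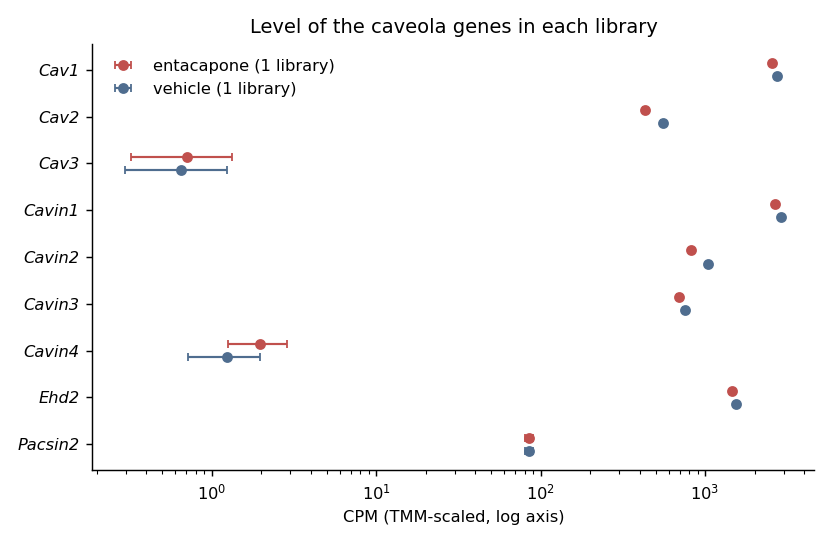
Level of each caveola gene in CPM on a log axis, with the entacapone library above the vehicle library in each row. Bars are exact 95% Poisson intervals of the counts, and many are narrower than the points; 7 genes lie above 80 CPM in both libraries, and Cav3 and Cavin4 lie near 1 CPM.

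Cav1 encodes the caveolin without which adipocytes form no caveolae, and Cav2 encodes a partner that needs caveolin-1 to reach the membrane. The genes are neighbours on chromosome 6 of GRCm38, both on the plus strand. Cav2 (ENSMUSG00000000058) spans chr6:17281185-17289115, Cav1 (ENSMUSG00000007655) spans chr6:17306335-17341452, and 17219 bases lie between them. Their promoters are shown together with that of Cavin2 because Cav2 and Cavin2 differed by a similar amount between the libraries while Cav1, next to Cav2, differed by less. Each is the 250 bases before the RefSeq start that coincides with the start of the gene in GENCODE M21, in build GRCm38.p6, on the plus strand, at chr6:17306085-17306334 for Cav1, chr6:17280935-17281184 for Cav2 and chr1:51288876-51289125 for Cavin2. Capitals mark matches, on either strand, to the TATA box (TATAAA), the CCAAT box (CCAAT) and the GC box (GGGCGG).
Cav1: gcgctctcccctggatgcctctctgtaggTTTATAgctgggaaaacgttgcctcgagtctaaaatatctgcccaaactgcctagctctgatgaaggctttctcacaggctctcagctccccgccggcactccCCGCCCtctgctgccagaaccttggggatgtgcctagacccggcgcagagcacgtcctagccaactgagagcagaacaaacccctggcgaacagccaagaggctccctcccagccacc
Cav2: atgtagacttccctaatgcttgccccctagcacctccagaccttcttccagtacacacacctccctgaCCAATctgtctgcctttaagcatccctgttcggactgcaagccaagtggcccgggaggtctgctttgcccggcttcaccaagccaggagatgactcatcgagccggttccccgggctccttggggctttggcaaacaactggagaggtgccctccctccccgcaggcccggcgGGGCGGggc
Cavin2: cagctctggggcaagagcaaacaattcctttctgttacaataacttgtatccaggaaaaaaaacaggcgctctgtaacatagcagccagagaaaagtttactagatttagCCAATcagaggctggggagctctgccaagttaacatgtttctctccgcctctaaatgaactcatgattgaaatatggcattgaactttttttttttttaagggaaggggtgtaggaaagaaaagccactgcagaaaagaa

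The Cav1 window held 1 GC box and 1 match to the TATA letters, both on the minus strand. The TATA letters began 221 bases before the start and the GC box 118 bases before it. RefSeq gives Cav1 another start downstream, whose window at chr6:17307390-17307639 is not printed; it held none of the motifs searched and had a G and C content of 60.8%. The Cav2 window held 1 CCAAT box and 1 GC box, and the Cavin2 window held 1 CCAAT box and no GC box. The G and C content was 59.6% for Cav1, 62.0% for Cav2 and 40.4% for Cavin2. Of 32851 RefSeq promoter windows of the same length, 12.4% held the TATA letters, 33.8% the CCAAT letters and 32.7% the GC box letters. The letters of a FOXO site (GTAAACA), found in 3.17% of windows and free of overlap with the other motifs, were in none of the 3 windows. RefSeq windows were matched for 8 of the 9 genes, all except Cavin3. Among the windows not printed, the CCAAT and GC box letters were also found for Cavin1, Ehd2 and Pacsin2. The CCAAT letters were thus not particular to the windows of Cav2 and Cavin2. For Cavin1 and Ehd2 the RefSeq start does not coincide with the GENCODE gene start. For Pacsin2 only the window at the coinciding start held the letters. The log2 ratios of Cavin1, Ehd2 and Pacsin2 were -0.11, -0.08 and 0.01. Any part of a motif in the ratios was not tested. A match of letters is a description of the window and not a binding site.

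Cav1 had 2547 CPM in the entacapone library, on 32603 reads, and 2749 CPM in the vehicle library, on 37969 reads. It was lower with entacapone by a factor of 1.08, at a log2 ratio of -0.11 (-0.13 to -0.09). Although small, this difference lay outside counting error because the gene ranks above 99.7% of tested genes by mean CPM.

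Cav2 had 430 CPM in the entacapone library, on 5500 reads, and 555 CPM in the vehicle library, on 7670 reads. It showed the largest difference among the 6 lower caveola genes, 1.29-fold lower at a log2 ratio of -0.37 (-0.42 to -0.32). Of all tested genes, 16.7% had a lower log2 ratio than Cav2, against 35.8% for Cav1. The protein-coding genes on either side of the pair were not lower beyond counting error. Tes, which encodes a focal adhesion protein, was at 0.21 (-0.08 to 0.51) and Met, which encodes the receptor of hepatocyte growth factor, at 0.17 (-0.04 to 0.38), both within counting error.

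Cav3 (ENSMUSG00000062694, chr6:112459505-112472872), the muscle caveolin, had 9 reads in the entacapone and 9 in the vehicle library, which is 0.703 and 0.652 CPM. It fell under the expression minimum and was not compared; its ratio interval on the log2 scale reached from -1.40 to 1.62.

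On the RPKM scale, which is CPM per kilobase of annotated exons, Cav1 stood at 740 in the entacapone library and 798 in the vehicle library, and Cav2 at 129 and 166 RPKM. Cav1 thus made up 85.1% of the caveolin RPKM in the entacapone library and 82.7% in the vehicle library. Cav2 made up 14.8% and 17.3%, and Cav3 under 0.1% in both. In RPKM, Cav1 was 5.74 times as high as Cav2 in the entacapone library and 4.79 times as high in the vehicle library.

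**Figure D2:**
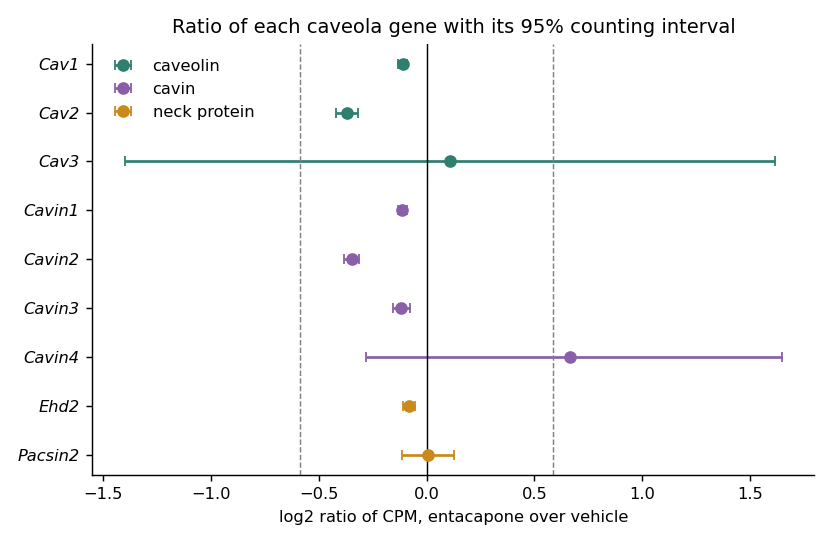
Log2 ratio of CPM, entacapone over vehicle, for the 9 caveola genes, coloured by role, with exact 95% counting intervals and dashed lines at 1.5-fold. Cav2 (-0.37) and Cavin2 (-0.35) lie furthest to the left, Cav1, Cavin1, Cavin3 and Ehd2 lie between -0.12 and -0.08, and the intervals of Cav3, Cavin4 and Pacsin2 include 0.

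Among the cavins, Cavin1 (ENSMUSG00000004044, chr11:100956733-100970887, minus strand) encodes the cavin required for caveola formation. It had 2678 CPM in the entacapone library, on 34271 reads, and 2894 CPM in the vehicle library, on 39972 reads. Its log2 ratio of -0.11 (-0.13 to -0.09) equalled that of Cav1 to 2 decimals.

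Cavin2 (ENSMUSG00000045954, chr1:51289126-51302960) encodes a cavin that bends the membrane and is prominent in endothelium. It had 824 CPM in the entacapone library, on 10540 reads, and 1048 CPM in the vehicle library, on 14479 reads. At 1.27-fold lower and a log2 ratio of -0.35 (-0.38 to -0.31) it stood beside Cav2 and apart from Cavin1.

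Cavin3 (ENSMUSG00000037060, chr7:105480083-105482300, minus strand) encodes a cavin first described as a binding protein of protein kinase C delta. It had 692 CPM in the entacapone library, on 8854 reads, and 750 CPM in the vehicle library, on 10360 reads, a log2 ratio of -0.12 (-0.16 to -0.08). An unconfirmed transcript model on the opposite strand, Gm45667, overlaps 374 of its 1662 exon bases. The kit does not mark strand, so reads of both cannot be told apart there. Whether reads in that overlap were counted for Cavin3 was not tested, and its CPM and RPKM carry this limit.

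Cavin4 (ENSMUSG00000028348, chr4:48663514-48673502), the cavin of skeletal and heart muscle, had 25 reads in the entacapone library and 17 in the vehicle library. Its 1.95 and 1.23 CPM gave a ratio of 1.59 with an interval of 0.824 to 3.13, so no difference was detectable at this depth. Of 15 measured markers of skeletal muscle, 14 were higher with entacapone beyond counting error, against 20.2% of all tested genes. Their summed level was 2334 CPM with entacapone and 1514 CPM with vehicle, and Tnnc2 was at 0 reads in both. The part of muscle in the Cavin4 and Cav3 reads was not tested.

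In RPKM, Cavin1 made up 52.1% of the cavin total in the entacapone library and 50.4% in the vehicle library. Cavin3 followed with 29.0% and 28.2%, then Cavin2 with 18.8% and 21.4%. In CPM Cavin2 stood above Cavin3 in both libraries, but Cavin3 has the shorter transcript and stood above Cavin2 per length, at 416 against 270 RPKM within the entacapone library and 451 against 343 RPKM within the vehicle library. Cavin1, at 747 RPKM in the entacapone and 807 RPKM in the vehicle library, was the caveola gene nearest in RPKM to Cav1 in both.

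Ehd2 (ENSMUSG00000074364, chr7:15946958-15967567, minus strand) had 1468 CPM in the entacapone library, on 18783 reads, and 1551 CPM in the vehicle library, on 21426 reads. Its log2 ratio was -0.08 (-0.11 to -0.05), the smallest of the 6 differences outside counting error. Pacsin2 (ENSMUSG00000016664, chr15:83375607-83464606, minus strand) had 85.1 CPM in the entacapone library, on 1089 reads, and 84.7 CPM in the vehicle library, on 1170 reads. Its log2 ratio was 0.01 (-0.11 to 0.13), so its interval reached no further than 1.09-fold higher. Per length, Ehd2 stood at 287 RPKM in the entacapone and 303 RPKM in the vehicle library, and Pacsin2 at 17.3 RPKM in both. The order of the 7 abundant genes in RPKM was Cavin1, Cav1, Cavin3, Ehd2, Cavin2, Cav2 and Pacsin2 with entacapone. With vehicle Cavin2 stood above Ehd2, and the rest of the order was the same.

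A ratio of reads between 2 genes of the same library needs no scaling between libraries. It was formed for all 21 pairs of the 7 abundant caveola genes and compared between the libraries with an exact conditional interval. In 10 pairs the interval excluded 1, and each of these set Cav2 or Cavin2 against 1 of the other 5 genes. In the remaining 11 pairs it did not: the 10 pairs among Cav1, Cavin1, Cavin3, Ehd2 and Pacsin2, and the pair of Cav2 with Cavin2. Pacsin2 had the fewest reads of the 7 genes, and several of its intervals only just included 1. Its ratio was 1.08 (0.996 to 1.18) against Cav1, 1.09 (0.997 to 1.18) against Cavin1 and 1.09 (0.997 to 1.19) against Cavin3. Its place with these genes thus reflects wide intervals and does not show equal ratios. The grouping was seen in the values and describes these libraries only.

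For every 100 reads of Cav1 there were 105.1 reads of Cavin1 in the entacapone and 105.3 in the vehicle library, a ratio of 0.998 (0.978 to 1.02). Cavin3 had 27.2 reads per 100 of Cav1 in the entacapone library and 27.3 in the vehicle library, and Ehd2 had 57.6 and 56.4. The main caveolin, its cavin partner, Cavin3 and Ehd2 therefore kept close to the same proportions in both libraries.

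Cav2 had 16.9 reads per 100 of Cav1 in the entacapone library and 20.2 in the vehicle library, a ratio of 0.835 (0.804 to 0.867). Cavin2 had 30.8 reads per 100 of Cavin1 in the entacapone library and 36.2 in the vehicle library, a ratio of 0.849 (0.825 to 0.874). Cavin2 against Cav2 stood at 191.6 reads per 100 in the entacapone library and 188.8 in the vehicle library, a ratio of 1.02 (0.972 to 1.06).

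**Figure D3:**
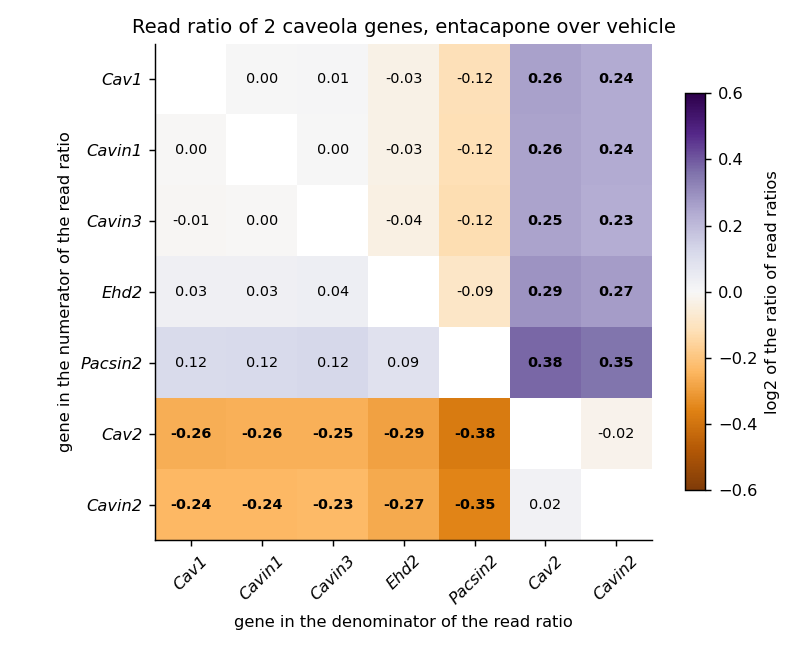
Log2 of the read ratio of 2 caveola genes in the entacapone library over the same ratio in the vehicle library, for 7 genes; rows are the numerator gene, columns the denominator gene, and bold values have an exact 95% interval that excludes a ratio of 1. The bold values are those that set Cav2 or Cavin2 against the other 5 genes, from 0.23 to 0.38 in size.

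Markers of the cell types richest in caveolae went both ways. The counts below stand against 20.2% higher and 21.1% lower beyond counting error over all tested genes. Among the 13 endothelial markers 5 exceeded counting error upward and 3 downward, the median log2 ratio was 0.00, and none was at 0 reads. Their summed level was 1614 CPM with entacapone and 1577 CPM with vehicle. Tek, which encodes an angiopoietin receptor, was at -0.34 (-0.51 to -0.17). Adipocyte markers had a median of 0.03, with 6 higher and 4 lower of 11. Among the lower ones were the leptin gene Lep at -0.42 (-0.44 to -0.41) and Pparg, a master regulator of fat cells, at -0.32 (-0.41 to -0.23). Tek, Lep and Pparg were named after their values were seen, for log2 ratios close to those of Cav2 and Cavin2. Other markers of both lists differed by more in the other direction. The highest were the endothelial marker Flt1 at 0.56 (0.43 to 0.70) and the adipocyte marker Adrb3 at 0.96 (0.86 to 1.05). Smooth muscle and pericyte markers summed to 1261 CPM with entacapone and 1378 CPM with vehicle, with 2 higher and 4 lower of 8 and none at 0 reads.

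Fibroblast and progenitor markers were lower beyond counting error in 10 of 11, against 21.1% of all tested genes (20.2% were higher). Their summed level was 5160 CPM with entacapone and 8196 CPM with vehicle. Macrophage markers were lower in 10 of 10, at 825 and 1637 CPM. Hepatocyte markers were lower in 9 of 9, at 90.2 and 363 CPM, and epithelium markers were higher in 5 of 7, at 86.8 and 22.9 CPM. Lymphocyte markers were higher in 1 of 6 and red blood cell markers in 3 of 3. No marker of these 5 cell types or tissues, nor of red blood cells, was at 0 reads in both libraries. The part of these cells, and of adipocytes, endothelium and smooth muscle, in the caveola gene ratios was not tested.

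The genes closest to Cav1 and Cavin1 in both libraries were found by distance on log2 CPM, over the 2 libraries only. For Cav1 these were Cavin1, at a distance of 0.10, then the lysosomal protease gene Ctsb at 0.14 and the mitochondrial gene mt-Nd1 at 0.15. For Cavin1 they were the basement membrane collagen gene Col4a2 at 0.07, the histocompatibility gene H2-D1 at 0.09 and the intermediate filament gene Vim at 0.10.

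Other proteins that act at caveolae or resemble the neck proteins went both ways. Of 14 listed genes 13 were measured, with 3 higher and 5 lower beyond counting error and a median log2 ratio of 0.02. Past 1.5-fold, 1 was higher and 2 were lower. Trim72, a membrane repair protein of striated muscle, was at 0.90 (0.10 to 1.73) on 38 entacapone and 22 vehicle reads. The part of muscle in this ratio was not tested. Ror1, a receptor known to stabilize caveolae, was lowest at -0.70 (-1.37 to -0.06) on 33 entacapone and 58 vehicle reads, and Dnm1, a dynamin that cuts necks of endocytic vesicles, was at -0.69 (-0.91 to -0.47).

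The paralogues of the neck proteins are named here after their values were seen. The ATPase genes Ehd3 (-0.40, -0.53 to -0.28) and Ehd4 (-0.38, -0.51 to -0.24) were lower, at log2 ratios close to those of Cav2 and Cavin2. Ehd1 was within counting error at 0.03 (-0.04 to 0.10). Pacsin3, a paralogue found in muscle, was at 0.25 (0.07 to 0.43), and Pacsin1, of neurons, had 7 entacapone and 5 vehicle reads and was not compared. The widely expressed dynamin Dnm2 was higher at 0.24 (0.16 to 0.32). The flotillins Flot1 (0.02) and Flot2 (0.05), scaffolds of other membrane domains, and Flna (-0.02), the filamin that links caveolae to actin, were within counting error.

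Among 14 genes of caveola cargo and signalling partners, all measured, 7 were higher beyond counting error and 5 were lower. Over all tested genes these shares were 20.2% and 21.1%, and from 100 CPM upward 44.3% and 31.2%. The list median was 0.11, and none of its genes passed 1.5-fold, against 4.16% higher and 7.9% lower of all tested genes. Irs1, an insulin receptor substrate, was highest at 0.48 (0.21 to 0.75), and the insulin receptor gene Insr was next at 0.47 (0.34 to 0.60). Cd36, the fatty acid translocase that resides in caveolae, had 4153 CPM with entacapone and 4850 CPM with vehicle (-0.22, -0.24 to -0.21). The fatty acid transporter Slc27a1 went the other way, at 1356 and 1077 CPM (0.33, 0.30 to 0.36). Nos3, the endothelial nitric oxide synthase held by caveolin-1, was at -0.18 (-0.34 to -0.02). Insr, Cd36, Slc27a1 and Nos3 were named after their values were seen.

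Clathrin coat and AP2 adaptor genes, which serve the other main route of coated-pit uptake, were split evenly, with 4 higher and 4 lower of 11. Their median was -0.04. Beyond counting error, 20.2% of all tested genes were higher and 21.1% lower, and 44.3% and 31.2% of those from 100 CPM upward. Ap2b1 was highest at 0.19 (0.08 to 0.30) and the clathrin heavy chain gene Cltc lowest at -0.27 (-0.33 to -0.20). The genes of human generalized lipodystrophy other than CAV1 and CAVIN1 were both lower. The acyltransferase gene Agpat2 stood at 179 CPM with entacapone and 465 CPM with vehicle, and Bscl2, which encodes seipin, was at 338 and 393 CPM (-0.22, -0.27 to -0.16). Of these 4 genes Agpat2 alone passed 1.5-fold.

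**Figure D4:**
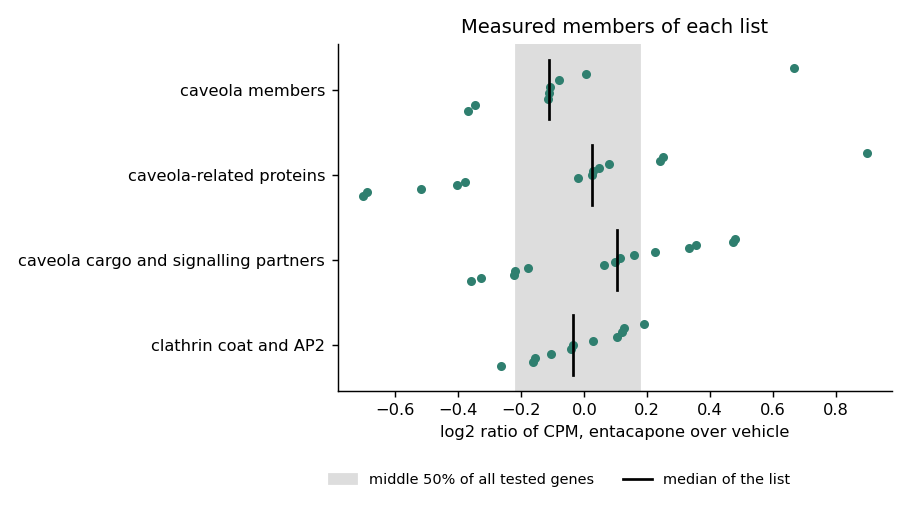
Log2 ratio of CPM, entacapone over vehicle, for the measured genes of 4 lists; each point is 1 gene, black lines are list medians and the grey band holds the middle 50% of all tested genes. The caveola genes have a median of -0.11, against 0.02 for caveola-related proteins, 0.11 for cargo and partners and -0.04 for the clathrin coat and AP2.

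A scaling moves all log2 ratios by the same amount, so it leaves their order and the spacing between genes as they are. Under the TMM scaling and 6 others, the log2 ratio of Cav1 lay between -0.28 and -0.10, that of Cav2 between -0.54 and -0.36 and that of Cavin2 between -0.52 and -0.33. The lower end of each range came from scaling to the summed reads of the adipocyte markers, which lowers every log2 ratio by 0.17. Pacsin2 had no direction beyond counting error under TMM or 5 of the other scalings, where it lay between -0.03 and 0.02. Relative to the summed reads of the adipocyte markers Pacsin2 was at -0.16 (-0.28 to -0.04), by the same common shift. That sum weights Fabp4 and Car3 most, at 17900 and 15293 CPM in the entacapone library, and both were higher (0.25 and 0.47). The median adipocyte marker was at 0.03, so this scale does not stand for a typical marker.

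**Figure D5:**
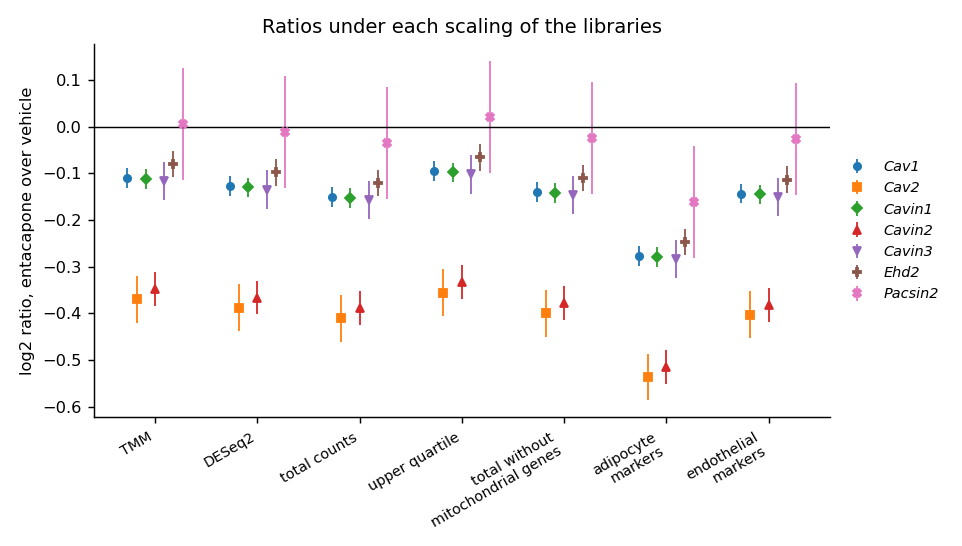
Log2 ratio, entacapone over vehicle, of 7 caveola genes under 7 scalings of the libraries, with exact 95% counting intervals. A scaling shifts all genes alike, and they lie lowest with the adipocyte markers as the scale, where Pacsin2 is at -0.16.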

How the data were processed

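Poly(A) RNA of white fat was sequenced from TruSeq RNA v2 libraries, which do not mark strand, on a HiSeq instrument, per the labels' protocols. Each library has 1 file of deposited whole-number read counts, keyed by Ensembl gene identifier and not normalized. Per the submitters' processing notes, the tools were TopHat2 2.1.1 and HTSeq 0.6.0 with build mm10. How multiply mapped reads were counted, and with which annotation, is not given in the sources used here. GENCODE M21 (GRCm38, the assembly of mm10) paired 35449 of 37315 identifiers with symbols and gave positions and merged exon lengths; the 1866 others held 0.188% of entacapone and 0.181% of vehicle reads and stayed in the library sizes.

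CPM values used edgeR 4.0.16 TMM factors (0.986 for the entacapone and 1.01 for the vehicle library). Ratio intervals are Clopper-Pearson intervals of the share of a gene's reads that came from the entacapone library (scipy 1.17.1); intervals between pairs of genes are those of the conditional odds ratio. They cover counting error only, since neither group has a replicate. Reads carry no molecular identifiers, so duplicate reads could not be told apart from separate molecules. List medians used log2(CPM + 0.5). No p-value was computed. The intervals were run on simulated counts that held counting error only. This checked the computation and not variation between mice or libraries. The other scalings tried were size factors from DESeq2 1.42.0, total counts with and without mitochondrially encoded genes, upper-quartile scaling, scaling to adipocyte or (added after the values were seen) endothelial markers; other settings were minimums, folds, pseudocounts and interval levels.

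The caveola genes and all lists were chosen with earlier results of these data known. The text names all 9 caveola genes, each gene of the other pathway lists that was called, the highest and lowest of each such list, and the 3 genes nearest to Cav1 and to Cavin1; others were chosen after their values were seen. One gene that this rule takes is not reported here. Promoter sequences are from RefSeq (GRCm38.p6).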

Additional observations from a re-analysis of the deposited data

How the results depend on the processing

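The count of caveola genes lower beyond counting error was 6 under TMM, under DESeq2 size factors, total counts with and without mitochondrially encoded genes, upper-quartile scaling and scaling to endothelial markers, and with a 99% interval, and 7 when scaled to adipocyte markers. The median log2 ratio of the measured caveola genes, -0.11 under TMM, was -0.15 with total counts and -0.28 with adipocyte markers as the scale. With the smaller fold limit, a log2 ratio of -0.32, 2 caveola genes passed as lower, Cav2 at 1.29-fold and Cavin2 at 1.27-fold, against 14.1% of all tested genes. Without the interval criterion 1 passed as higher (Cavin4). With the summed reads of the adipocyte markers as the scale, which weights Fabp4 and Car3 most, Pacsin2 was at -0.16. Under TMM it was at 0.01 and within counting error. That scaling moved the median of the caveola-related list to -0.14, of cargo and partners to -0.06 and of the clathrin list to -0.20, by the common shift of -0.17. No replicate could be left out, and no paired analysis was possible because each group has 1 library. Depth limits Cav3 and Cavin4, on 9 to 25 reads per library.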
